A study of Mus musculus with 12 samples.

Results

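Apoe and Clu, the genes for apolipoprotein E and for clusterin (apolipoprotein J), were followed on 12 mouse arrays through every probe that the platform's annotation gives them: 2 of the 15081 genes named on the array and 3 of its 21738 probes, 1 for Apoe (NM_009696) and 2 for Clu (NM_013492 and AJ279836). Both genes were chosen by their measured values, which were higher after longer culture on these same arrays, so their change with time is described here without a test. RNA came from neurospheres grown from the cortex of mouse embryos of gestational day 12.5, without serum and with the growth factors basic FGF, EGF and LIF. It fell into 4 groups of 3 arrays: control cultures at 24 h, prominin cultures at 24 h, control cultures at 108 h and prominin cultures at 108 h. Prominin cultures received an adenovirus carrying CD133/R-prominin1, whereas the controls' own labels name growth medium alone and the series' design text names GFP. If the controls had no virus, virus and prominin-1 cannot be told apart. The treatment text of all prominin samples reads 108 h, and the time of each title was used. Each array set a Cy5-labelled neurosphere RNA against a common Cy3-labelled RNA of whole C57/Bl6 embryos of gestational day 12, with no dye swap, so each value is a log2 ratio and not an amount of RNA. The labels do not say that the 3 replicates of a group were separate cultures, so p-values measure only the spread between these samples, which may be technical. No strain is given for the neurosphere donors.

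Apolipoprotein E is the main lipid carrier that astrocytes and radial glia release in the brain. It takes up cholesterol and phospholipid through ABC transporters and is bound by receptors of the LDL receptor family. Clusterin is a second lipoprotein of glia. It also acts as a chaperone outside the cell and as an inhibitor of the complement attack complex. In the embryo Apoe is also strongly expressed by liver and yolk sac, tissues that a whole-embryo reference contains, and Clu by many epithelia.

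Apoe lies on chromosome 7, at 19696244 to 19701310, and Clu on chromosome 14, at 65968483 to 65981548, in the GRCm38.p6 assembly of RefSeq. RefSeq's promoter table gave 3 windows for Apoe and none for Clu. The Apoe window farthest upstream is shown, since this gene's level is the subject of all that follows, with its 250 bases before the start site (GRCm38.p6, chr7:19699189-19699438, minus strand). Capitals mark the letters GGCGGG, part of a GC box, 47 bases before the start.
Apoe: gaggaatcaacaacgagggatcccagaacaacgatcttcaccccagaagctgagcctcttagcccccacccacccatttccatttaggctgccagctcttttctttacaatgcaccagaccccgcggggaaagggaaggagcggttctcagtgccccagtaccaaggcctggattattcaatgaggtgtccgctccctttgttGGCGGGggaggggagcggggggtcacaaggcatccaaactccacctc
The window held 57.2% G and C, against a median of 52.4% over 32851 promoter windows of the same length. GGCGGG, searched on both strands like the others, occurs in 32.5% of those windows. TATAAA (in 12.4% of windows), CCAAT (33.8%), the heat shock core GAANNTTC (6.69%) and the AP-1 letters TGANTCA (6.75%) were not found in it. Of the other Apoe windows, 1 held TATAAA at 2 places, 100 and 96 bases before its start site, and neither held another of these motifs. The window shown lies inside the span given for the gene, as do the other windows.

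The arrays differed in depth. On the 24 h arrays 10404 to 14465 probes had a measured value, and 31.6 to 56.0% of these were ratios of whole numbers up to 10, which dim spots give. On the 108 h arrays 15944 to 16598 probes were measured, and 3.30 to 9.61% were such ratios. The exact values 0 and 16.61 recur as codes and were set to missing. From each array the median of its 4532 probes with a value on every array was then subtracted, so 0 is the median probe and every change is relative to it. The labels do not state which way the ratio runs. Neurosphere over reference is likely, since 4 astrocyte marker genes had array medians between 5.30 and 7.14 and 2 liver and yolk sac genes between −7.85 and −3.25. Prom1, the gene of the virus insert, was measured on 9 arrays by 1 probe. Its difference between prominin and control was −2.23 (SE 0.95) at 24 h and 2.58 (SE 0.87) at 108 h, with limma adjusted p of 0.998 and 0.717, so it did not check the prominin labels.

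Apoe was measured on all 12 arrays and was never at a dim whole-number ratio. In control cultures at 24 h its centred log2 ratios were −2.00, −0.90 and −1.46, with a mean of −1.46 ± 0.55 (SD, n = 3). In prominin cultures at 24 h they were −1.14, −1.52 and −1.57, with a mean of −1.41 ± 0.24 (SD, n = 3). These groups overlapped, and all 6 arrays lay below the median probe. Control cultures at 108 h gave 1.76, 1.47 and 1.01, with a mean of 1.41 ± 0.38 (SD, n = 3). Prominin cultures at 108 h gave 0.68, 0.70 and 1.17, with a mean of 0.85 ± 0.28 (SD, n = 3). All 6 arrays of 108 h lay above the median probe and above every array of 24 h, with a gap of 1.58 between the lowest array of 108 h and the highest of 24 h.

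Clu, read by probe NM_013492, was also measured on all 12 arrays, never at a dim whole-number ratio. Its centred log2 ratios were 0.10, 0.85 and 0.86 in control cultures at 24 h, a mean of 0.60 ± 0.44 (SD, n = 3). They were 0.98, 0.98 and 0.33 in prominin cultures at 24 h, a mean of 0.76 ± 0.38 (SD, n = 3). Again the groups of 24 h overlapped, and every array lay above the median probe. At 108 h the values were 4.24, 2.78 and 3.24 in controls, a mean of 3.42 ± 0.75 (SD, n = 3). They were 2.70, 3.59 and 2.63 in prominin cultures, a mean of 2.97 ± 0.54 (SD, n = 3). The lowest array of 108 h lay 1.65 above the highest of 24 h. Among 4532 probes measured on all arrays, 1.21% had all 6 arrays of 108 h above all 6 of 24 h. Apoe and Clu are 2 of those 55 probes, which follows from their choice.

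**Figure D1:**
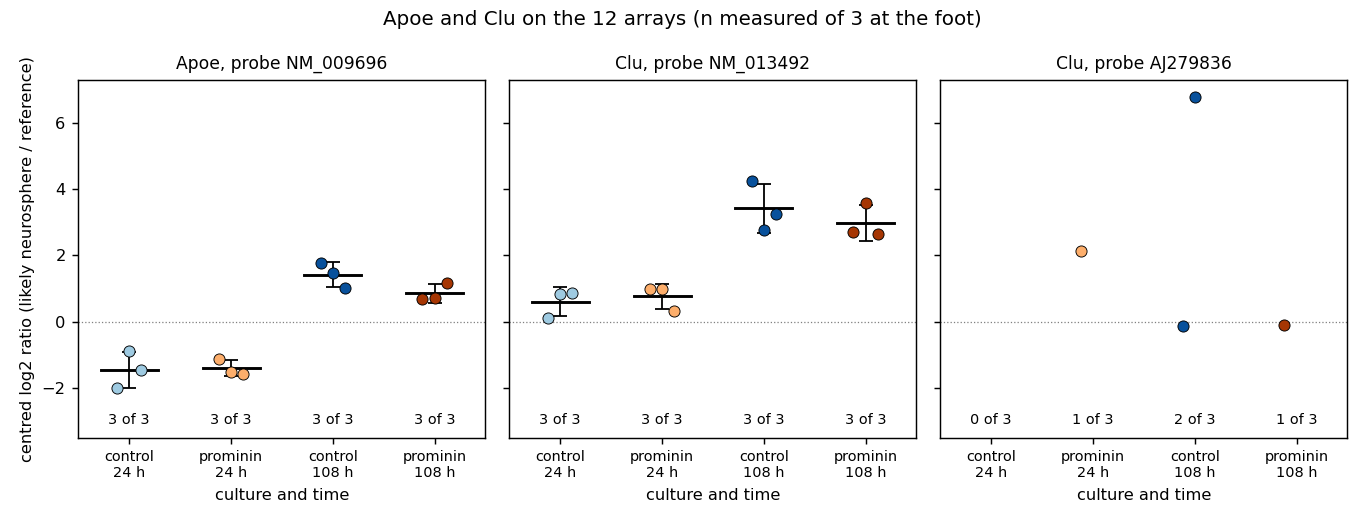
Centred log2 ratio (vertical axis, taken as neurosphere over embryo reference, which is likely but not stated) for the probes of Apoe and Clu in the 4 groups. Points are arrays, bars are the mean ± SD of 3 arrays, and the numbers at the foot say how many of 3 arrays were measured. Apoe and Clu NM_013492 are higher on all arrays of 108 h, and Clu AJ279836 was measured on 4 of 12 arrays.

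The second Clu probe, AJ279836, carried little signal and could not be tested. It held a measured value on 4 of the 12 arrays, an exact 0 on 6 and the top code on 2, and no control array of 24 h was measured. The measured centred values were 2.14 in prominin 24 h replicate 2, −0.12 and 6.78 in control 108 h replicates 2 and 3, and −0.12 in prominin 108 h replicate 1. The value of 24 h was a dim whole-number ratio. Within an array the 2 Clu probes differed by −2.90 to 3.54 (AJ279836 minus NM_013492), with a median absolute difference of 2.85 over the 4 arrays. Each value is a ratio to the same reference RNA, so probes that read 1 transcript alike would differ little. The 2 Clu probes thus did not agree on these 4 arrays, and the reason was not tested. Their difference varied between arrays with an SD of 3.16. Without the dim ratio it varied over 3 arrays with an SD of 3.69. The labels give no probe sequences, and which part of the Clu transcript AJ279836 reads was not analysed here. Every further value of Clu is that of NM_013492.

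The difference with time was of like size in both genes. In controls the difference between 108 h and 24 h was 2.87 (SE 0.53) for Apoe and 2.82 (SE 0.59) for Clu, which is 7.29-fold and 7.05-fold. In prominin cultures it was 2.26 (SE 0.53) for Apoe and 2.21 (SE 0.59) for Clu. Averaged over both cultures it was 2.56 (SE 0.37) for Apoe and 2.52 (SE 0.42) for Clu, or 5.91-fold and 5.72-fold. By this average Apoe stood 80th and Clu 90th from the highest of the 9155 tested probes, those with 2 or 3 values in each group. These would be ranks from the lowest if the ratio ran the other way. As the genes were chosen for this change, the ranks describe the choice. The 24 h arrays were the ones with fewer measured probes and more dim ratios, so time and this lower signal cannot be told apart.

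Arrays of one group gave close values for both genes. The residual SD within groups was 0.38 for Apoe and 0.54 for Clu, against a median of 1.19 over the tested probes. Of those probes 3.23% varied less than Apoe and 10.2% less than Clu. The tested probes include ones with missing values and dim ratios, which Apoe and Clu did not have. As both genes were chosen for their change on these arrays, these shares may reflect the choice.

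The difference between both genes within an array (Clu minus Apoe) does not depend on centring. In control cultures at 24 h it was 2.10, 1.75 and 2.32, and in prominin cultures at 24 h 2.11, 2.50 and 1.89. At 108 h it was 2.48, 1.31 and 2.23 in controls and 2.01, 2.89 and 1.46 in prominin cultures. Its mean was 2.11 ± 0.27 (SD, n = 6) at 24 h and 2.07 ± 0.60 (SD, n = 6) at 108 h, means that differed by less than the spread between arrays. The size of this difference is relative to Clu and Apoe in the reference RNA, and is not a ratio of their amounts in the cultures.

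Within a time, Pearson's r between the centred values of both genes was 0.739 over the 6 arrays of 24 h and 0.404 over the 6 of 108 h (Spearman's rho 0.60 and 0.314). As deposited, r was 0.906 and 0.836 (rho 0.60 and 0.943). These points share the array and its scale, which centring in part removes, and they are given as a description.

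**Figure D2:**
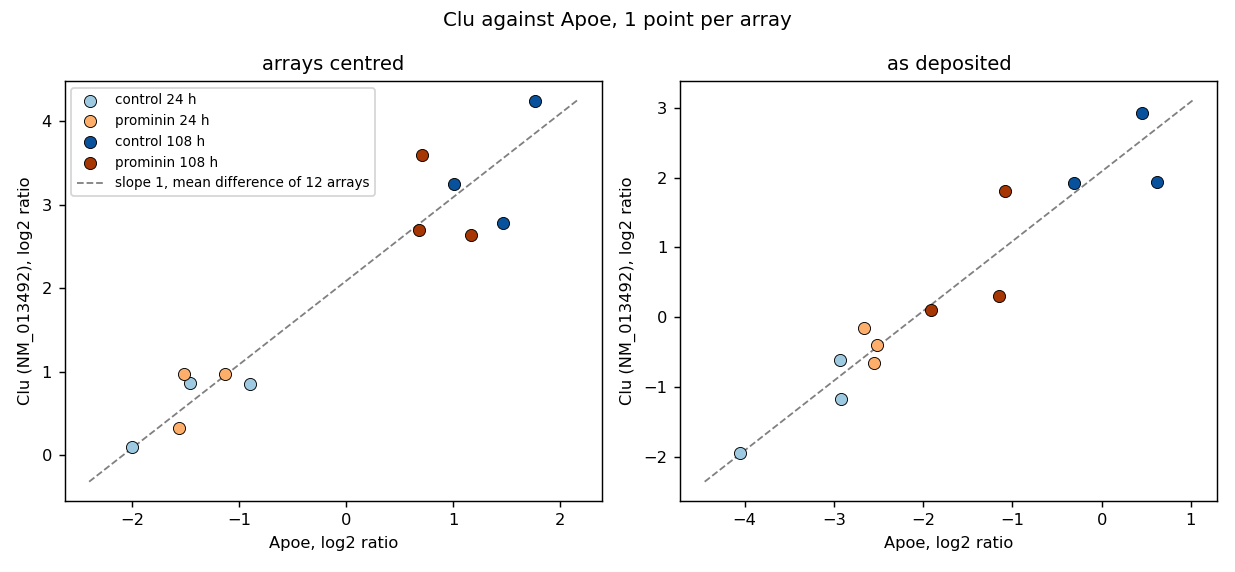
Log2 ratio of Clu (vertical axis) against that of Apoe (horizontal axis) on each of the 12 arrays, with arrays centred on the left and values as deposited on the right. The dashed line has slope 1 at the mean difference of 2.09 over the 12 arrays, and on the left the arrays of 24 h and of 108 h form separate clusters along it.

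The comparison of prominin with control cultures did not enter the choice of the genes and was tested. It asked whether cultures given the prominin-1 virus differed in these lipid carriers. Neither gene passed at either time. At 24 h the difference was 0.05 for Apoe (SE 0.53, 95% interval −1.11 to 1.20, limma adjusted p = 0.999) and 0.16 for Clu (SE 0.59, −1.13 to 1.45, limma adjusted p = 0.999). At 108 h it was −0.56 for Apoe (SE 0.53, −1.71 to 0.60, limma adjusted p = 0.868) and −0.45 for Clu (SE 0.59, −1.74 to 0.85, limma adjusted p = 0.926). The groups of 108 h overlapped in both genes. Two-sided exact permutation tests over arrays gave p = 1.0 and 0.20 for Apoe and 0.50 and 0.50 for Clu at 24 h and 108 h, where 3 arrays against 3 cannot go below 0.10.

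Averaged over both times, prominin minus control was −0.26 for Apoe (95% interval −1.07 to 0.56, limma adjusted p = 0.975) and −0.14 for Clu (−1.06 to 0.77, limma adjusted p = 0.983). The exact permutation test with labels permuted within each time gave p = 0.295 for Apoe and 0.67 for Clu, where 400 arrangements allow 0.005. The interaction, the difference at 108 h minus that at 24 h, was −0.61 for Apoe (−2.24 to 1.03, limma adjusted p = 0.914) and −0.61 for Clu (−2.43 to 1.22, limma adjusted p = 0.917). At 24 h the intervals span changes of 1 log2 unit (2-fold) in either direction, so these tests do not show that the cultures were alike. Over all 9155 probes limma called 0 (0.00%) in each of these 4 comparisons, with 419, 624, 463 and 545 probes at an unadjusted p under 0.05.

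Without centring the prominin differences were larger. As deposited, Apoe at 108 h read 0.45, 0.63 and −0.31 in controls and −1.91, −1.08 and −1.15 in prominin cultures, a difference of −1.64 (95% interval −2.93 to −0.35, limma adjusted p = 0.223). All 3 prominin arrays lay below all controls, and so did those of 29.1% of the 7704 probes measured on the 6 arrays. Clu at 108 h read 2.93, 1.94 and 1.92 in controls and 0.10, 1.81 and 0.31 in prominin cultures, a difference of −1.52 (−2.98 to −0.07, limma adjusted p = 0.256), again without overlap. The exact permutation p was 0.10 for each gene, the smallest possible. At 24 h the deposited values differed the other way, by 0.72 for Apoe, without overlap like 18.8% of the 5289 probes measured there, and by 0.84 for Clu, with overlap. The interaction was −2.36 for both (limma adjusted p = 0.193 and 0.206). Centring had removed group differences of 0.68 at 24 h and −1.08 at 108 h in the array medians.

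**Figure D3:**
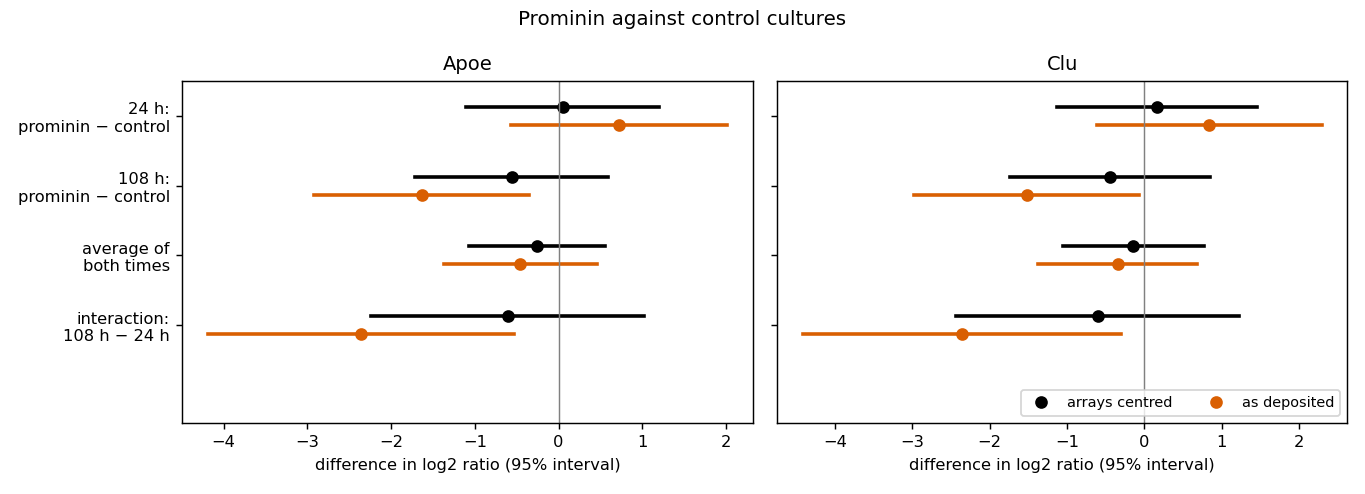
Difference between prominin and control cultures in log2 ratio (horizontal axis) with its 95% interval, for Apoe and Clu, with arrays centred (black) and as deposited (orange). With centring all intervals include 0, and as deposited those of 108 h and of the interaction lie below 0.

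The genes that act with apolipoprotein E and clusterin were taken from 7 lists of 106 genes, of which 50 genes had 54 tested probes. None of the 54 passed in any of the 7 contrasts of limma. For the change with time limma called 0 of all 9155 tested probes (0.00%) in controls, 2 (0.0218%) in prominin cultures and 5 (0.0546%) in the average of both. In the average change with time 34 of them had a positive and 20 a negative difference, with a median of 0.33, against 3875 and 4235 and a median of −0.05 over all 8110 tested probes with 1 gene symbol. At an unadjusted p under 0.05 there were 9 higher and 2 lower of the 54, and 329 higher and 456 lower of the 8110. The lists were chosen with earlier results of these data known, so such a difference may come from the choice of lists. The averages join both cultures, and in 18 of the 54 probes the control and prominin cultures had differences of opposite sign. Over all tested probes this was so in 4305 of 9155, a larger share. Of the 54 probes 1, that of Rxra, had a larger average difference than Apoe and Clu.

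Receptors that take up apolipoprotein E had 4 positive and 4 negative values (median 0.04). Vldlr, the receptor for very low density lipoprotein and reelin, had a difference with time of 1.74 (SE 0.53), and Lrp1, a large endocytic receptor of the same family, one of −1.24 (SE 0.55). Scarb1, the HDL receptor gene, averaged 1.54 (SE 0.69) from 4.39 in controls and −1.32 in prominin cultures, and Sort1, which encodes the sorting receptor sortilin, at 1.48 (SE 0.72) by one probe and 0.69 (SE 0.81) by the other. Their limma adjusted p for this contrast was 0.299 to 0.845.

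Genes that load and remodel the particles had 4 positive and 2 negative values (median 0.36). Lcat, which esterifies cholesterol on lipoproteins, lay at 2.37 (SE 1.00, limma adjusted p = 0.487), the transporter gene Abca2 at 1.15 (SE 0.65), and Abca1, the transporter that lipidates apolipoprotein E, at −1.14 (SE 0.98). The endothelial lipase gene Lipg lay at −0.68 (SE 0.88). Abca1 thus had a negative and Lcat a positive difference, both short of the threshold.

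Other apolipoproteins had 4 positive values and 1 negative (median 0.48). Apoc1 lay at 0.74 (SE 0.72), Apoc2 at 0.50 (SE 0.77), Apoh at 0.48 (SE 0.89) and Apoc3 at −1.21 (SE 0.74), with limma adjusted p of 0.643 to 0.908.

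Among regulators 3 values were positive and 4 negative (median −0.40). Rxra, the partner of the liver X receptors in transcription, had a difference of 3.83 (SE 0.84, limma adjusted p = 0.248), 11th of all 9155 probes from the highest, or from the lowest if the ratio ran the other way. It had 2 values in each group, and averaged 2.29 in controls with 5.37 in prominin cultures. In controls it thus lay below Apoe and Clu. The sterol-response factor gene Srebf2 lay at −1.42 (SE 0.47, limma adjusted p = 0.327), the retinoid receptor gene Rxrg at −1.83 (SE 1.04) and Cebpb at 0.74 (SE 0.56). The liver X receptor gene Nr1h3 lay at −0.40 (SE 0.94), named here after its value was seen. Of the genes that handle sterol inside the cell, 2 were positive and 4 negative (median −0.32). Osbp, an oxysterol-binding protein, lay at −1.22 (SE 0.98), the lysosomal lipase gene Lipa at 0.61 (SE 0.70), the cholesterol exporter of the lysosome Npc1 at 0.95 (SE 1.11) and Insig1 at −0.36 (SE 0.45).

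The list of complement genes and chaperones had 7 positive and 1 negative value (median 0.66). The endoplasmic reticulum chaperone gene Hspa5 lay at 1.62 (SE 0.43, limma adjusted p = 0.263) by probe U16277 and 0.42 (SE 0.40) by NM_022310. The small heat shock protein gene Hspb1 lay at 1.05 (SE 0.46), the crystallin gene Cryab at 0.90 (SE 0.45) and the vitronectin gene Vtn at −0.99 (SE 0.93). Besides Vtn, the complement side was tested only by Cd55 at 0.31 (SE 0.57) and Serping1 at 0.08 (SE 0.56). These 2 are named here after their values were seen. The larger positive values were those of chaperone genes. Other proteins that glia secrete had 10 positive and 4 negative values (median 0.27), with the lysosomal protease gene Ctsl at 1.00 (SE 0.35), Aplp1 at 1.44 (SE 0.63), the saposin precursor gene Psap at 1.29 (SE 0.57; 0.20 by its other probe) and the protease inhibitor gene Timp1 at −0.99 (SE 0.54). Their limma adjusted p was 0.352 to 0.928.

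**Figure D4:**
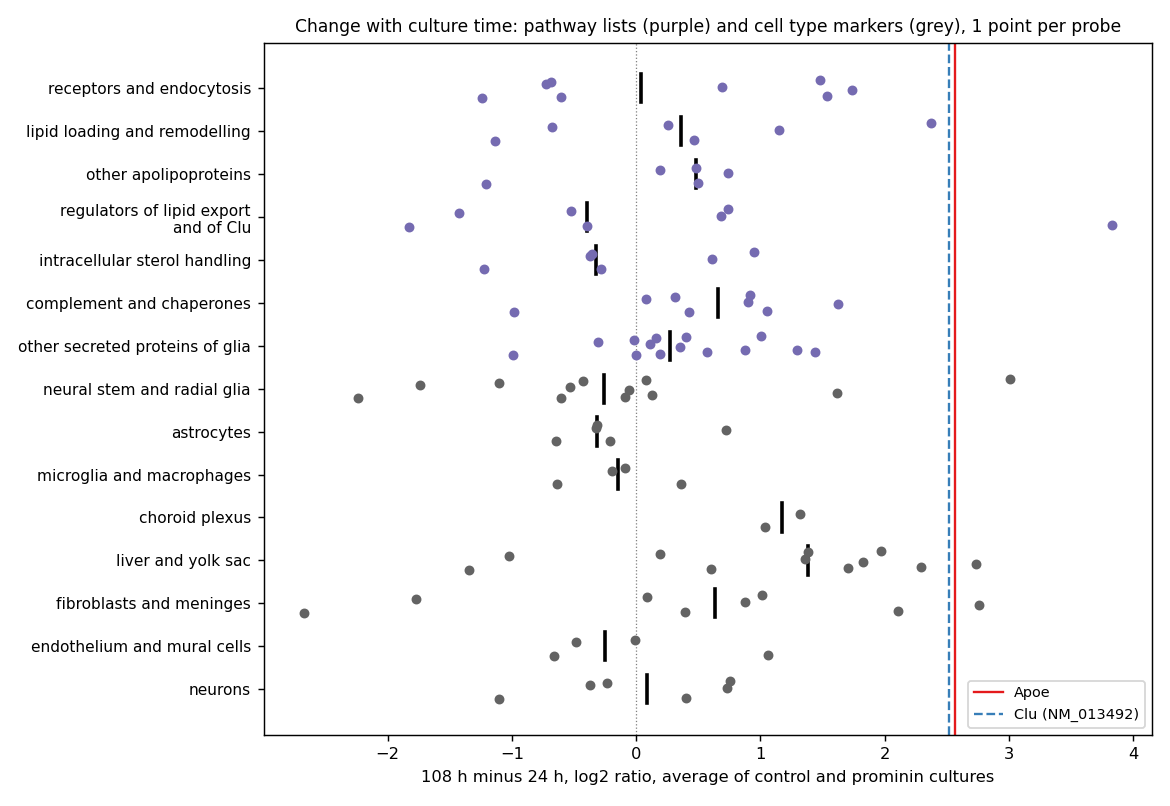
Difference between 108 h and 24 h in log2 ratio, averaged over control and prominin cultures (horizontal axis), for each tested probe of the 7 pathway lists (purple) and of 8 cell type marker lists (grey). Black bars are list medians, and the vertical lines mark Apoe at 2.56 and Clu at 2.52, to the right of all pathway probes but Rxra.

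Marker genes of the cells that make these carriers were set beside the rise. The 4 astrocyte genes measured on all 12 arrays had high array medians at both times. At 24 h these were 5.57 to 7.14 in controls and 5.30 to 6.51 in prominin cultures. At 108 h they were 6.04 to 6.94 and 5.89 to 7.04. Of the 4, Gfap, S100b and Glul were high, with means of 8.72, 7.70 and 4.93 at 24 h. Gja1 lay nearer the median probe, at 0.79 at 24 h and 0.15 at 108 h. So did Aldoc, measured on 9 arrays, at 1.08 and 0.74. The 5 tested probes, of 5 among the 10 listed astrocyte genes, had a median difference with time of −0.31 (1 positive, 4 negative). The glial filament gene Gfap lay at −0.31 (SE 0.52), S100b at −0.33 (SE 0.45), the gap junction gene Gja1 at −0.65 (SE 0.72) and the glutamine synthetase gene Glul at 0.72 (SE 0.66). Probes of other listed genes fell short of the filter. Their means at 24 h and 108 h were 2.16 and 3.62 for Aqp4 and −0.15 and 1.76 for Fgfr3. They were 2.99 and 2.78 for Slc1a2 and −0.13 and −0.32 for Aldh1l1. Another Gfap probe was measured on 0 arrays of 24 h and on 6 of 108 h, with a mean of 3.64. Neural stem and radial glia markers lay at a median of −0.26 (4 positive, 8 negative), with the Notch targets Hes5 at 3.01 (SE 1.18, limma adjusted p = 0.469) and Hes1 at 1.62 (SE 1.08), Msi1 at −2.24 (SE 1.50) and the stem cell factor gene Sox2 at −0.60 (SE 0.41). No marker probe of these lists passed in any contrast. Over all marker lists, control and prominin cultures had differences with time of opposite sign in 22 of 52 tested probes. Among these were Msi1, at 0.29 in controls and −4.76 in prominin cultures, and Gja1, at 0.76 and −2.06.

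Microglia, which also make apolipoprotein E, had 4 tested probes with a median of −0.14 (1 positive, 3 negative). They are the 4 of 11 listed genes that passed the filter. Aif1, Fcer1g, Lyz2 and Ptprc lay at −0.20 (SE 0.75), 0.36 (SE 0.52), −0.64 (SE 0.89) and −0.09 (SE 1.03). The tested Lyz2 probe had means of 1.68 at 24 h and 1.17 at 108 h. Its other probe, not tested, had means of −5.49 and −5.80. Markers of choroid plexus had 2 tested probes, Ttr at 1.32 (SE 0.76) and Aqp1 at 1.04 (SE 0.89), and none measured on all 12 arrays.

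Genes of liver and yolk sac, the embryonic sources of apolipoprotein E that the reference holds, had 9 positive and 2 negative values over 11 probes of 8 genes, with a median of 1.38. That median was 0.51 in controls, with 0 probes higher and 1 lower at an unadjusted limma p under 0.05, and 2.53 in prominin cultures, with 6 higher and 0 lower. Of these genes, Apoa4 also stands in the list of apolipoproteins. The albumin gene Alb averaged 2.29 (SE 0.65, limma adjusted p = 0.272) from 0.66 in controls and 3.92 in prominin cultures, the alpha-fetoprotein gene Afp at 1.38 (SE 0.60), Ahsg at 1.36 (SE 0.61), and 4 probes of the transferrin gene Trf at 1.70 to 2.74. Their array medians over 2 genes stayed low, from −7.85 to −4.70 at 24 h and −6.18 to −3.25 at 108 h. Fibroblast and meninges markers had a median of 0.63 (6 positive, 2 negative), with the collagen genes Col1a1 at 2.10 (SE 0.68) and Col3a1 at −1.77 (SE 0.58), Pdgfra at −2.67 (SE 0.97) and Postn at 2.76 (SE 1.79). Neuron markers had a median of 0.09, with Dcx at 0.75 (SE 0.66), Syt1 at −1.10 (SE 1.01), Tubb3 at 0.73 (SE 0.80) and Map2 at −0.37 (SE 0.43). Endothelial and mural markers had a median of −0.25, with Acta2 at 1.06 (SE 0.47), Kdr at −0.66 (SE 0.64), Rgs5 at −0.49 (SE 0.74) and Flt1 at −0.01 (SE 1.73). The part of these cell types in the values of Apoe and Clu was not tested, and in such cultures more cells of a type and more RNA per cell cannot be told apart.

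By pattern over the 12 arrays, each gene was the other's nearest probe. Among 4139 other probes with 1 symbol that were measured on all arrays, Clu had the highest correlation with Apoe (Pearson's r = 0.949) and Apoe the highest with Clu, a description of genes chosen for a like change. Next to Apoe came the lysosomal protease gene Ctsl (r = 0.914), Tagln3, a cytoskeletal gene of neurons (0.91), the transcript 9230112J17Rik (0.898), the metallothionein gene Mt1 (0.892) and the cyclin gene Ccni (0.888). Next to Clu came the glutathione peroxidase gene Gpx4 (0.926), the ribosomal gene Rpl41 (0.913) and the autophagy gene Map1lc3b (0.90). The cytochrome gene Cyb5a (0.892) and again Tagln3 (0.88) followed. Mt1 and Tagln3 had differences with time close to those of the pair, 2.48 (SE 0.41) and 2.36 (SE 0.46). Ctsl (1.00) and Gpx4 (1.10) had smaller ones, which correlation does not weigh.

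Part of this likeness is the step between times. With the mean of each time subtracted, the correlation of Apoe with Clu was 0.511, and 276 probes were nearer to Apoe and 185 nearer to Clu. The nearest to Apoe were then Dohh (0.891), Plec (0.869), Atp13a2 (0.838), 4930465M20Rik (0.832) and Hint2 (0.823). The nearest to Clu were Zc3hc1 (0.843), Gnas (0.833), Khdrbs1 (0.827), S100a13 (0.825) and Sidt2 (0.804). All are correlations over 12 arrays that share their scale.

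The neighbours of both genes on their chromosomes did not pass the limma test of the average change with time. Beside Apoe, the mitochondrial import gene Tomm40 had a difference with time of −0.44 (SE 0.45), Apoc1 one of 0.74 and Apoc2 one of 0.50, as given above, and Clptm1 (0.84), Bcam (0.27) and Bcl3 (0.54) had limma adjusted p of 0.762 to 0.946. Around Clu, Stmn4, a stathmin gene of neurons 376 kb away, lay at 3.58 (SE 0.74, limma adjusted p = 0.146). Ccdc25 (−0.66), Pbk (−1.38), Scara5 (0.88), Ephx2 (−1.60) and Dpysl2 (−0.86) had limma adjusted p of 0.626 to 0.896.

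The difference of Apoe and Clu with time was positive under every alternative run and with any array left out. The genes were chosen for this change, and all 6 arrays of 108 h lay above all 6 of 24 h. The positive sign was thus largely fixed in advance and adds no support. The size of the difference in each culture depended on centring. As deposited it was 3.56 (SE 0.59) for Apoe and 3.51 (SE 0.67) for Clu in controls, and 1.19 (SE 0.59) and 1.15 (SE 0.67) in prominin cultures. The average of both cultures hardly moved, at 2.37 and 2.33. All 6 deposited values of 108 h still lay above all 6 of 24 h, by 0.60 in Apoe and 0.26 in Clu, as in 0.596% of the 4532 probes.

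**Figure D5:**
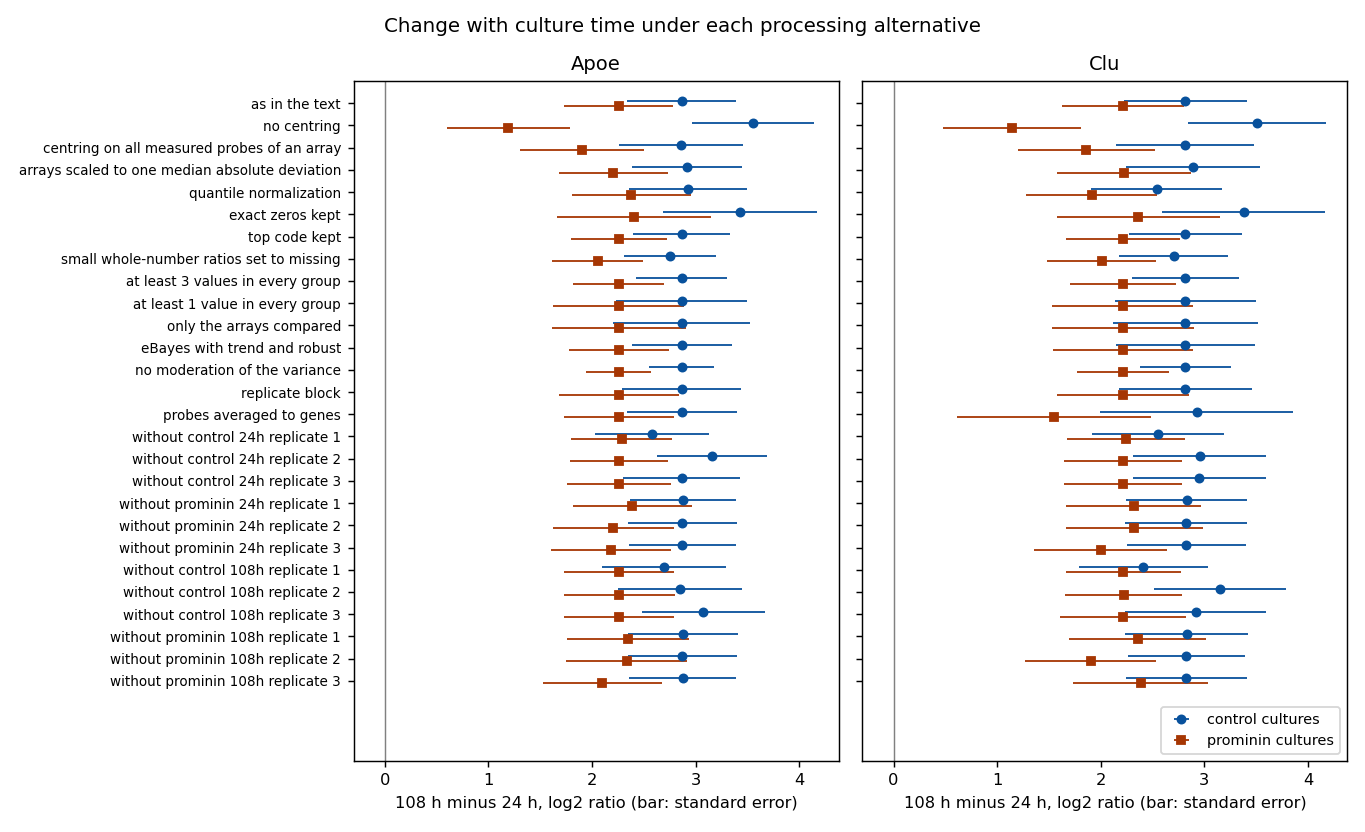
Difference between 108 h and 24 h in log2 ratio (horizontal axis, bars are standard errors) for Apoe and Clu in control and prominin cultures under each processing alternative. All values lie above 0, which the choice of the genes largely fixed, and the cultures stand farthest apart without centring.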

How the data were processed

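The series matrix table holds 21738 probes on 12 two-colour arrays. Its deposited values were read as log2 ratios. Per the labels' protocols, RNA was extracted with Trizol and RNeasy and labelled by dendrimers. How the arrays were scanned and normalized was not given in the sources used here. Symbols came from the platform annotation, updated by gene identifier, and can be old: 16620 probes had 1 symbol, 113 several and 5005 none.

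Exact 0 and 16.61 were set to missing and arrays centred. Probes needed 2 values per group. The 9155 that had them were fitted with limma 3.58.1 in R 4.3.3 (4 group means, moderated variance, Benjamini-Hochberg adjustment over all probes of a contrast, threshold 0.05). A check on simulated data with independent normal noise covered prominin against control at 24 h and at 108 h, and no other contrast. It required only that mean estimates lay near the added changes, with the same sign. Probes with missing values stay in the fit with the arrays they have. Contrasts share arrays. The prominin contrasts also had exact permutation tests.

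Members and lists were chosen with earlier results of these data known. Named were all member probes, up to 4 members of a list by smallest unadjusted p of the average change with time, the 5 probes of highest correlation with each gene, the 3 nearest tested neighbours on each side, and the cell type lists. Shared replicate numbers were not taken as pairing of samples. The number of arrays limits precision. Alternatives covered centring, scaling, codes, dim ratios, filters, moderation, a replicate block, averaging of probes and leaving out each array.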

Additional observations from a re-analysis of the deposited data

How the results depend on the processing

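The differences of Apoe and Clu with time were above 0 in every alternative tried, which the choice of the genes for this change largely fixed. In controls they were 3.56 and 3.51 without centring and 3.43 and 3.38 with exact zeros kept. In prominin cultures they were 1.19 and 1.15 without centring, and 1.55 for Clu with its probes averaged. No prominin difference or interaction of either gene passed under any alternative. For prominin at 24 h the value was −0.24 to 0.34 for Apoe and −0.11 to 0.38 for Clu when 1 array was left out. It turned negative for Apoe when control 24 h replicate 1 (−0.24) was left out, or replicate 1 of prominin 24 h (−0.079), and for Clu without control 24 h replicate 1 (−0.11). The average prominin difference of Clu was 0.012 with centring on all measured probes, and −0.30 to 0.065 with 1 array left out, positive without control 108 h replicate 1. At 108 h the prominin difference was −0.76 to −0.38 for Apoe and −0.77 to −0.034 for Clu with 1 array left out, nearest 0 in Clu without control 108 h replicate 1, and −1.02 for Clu with its probes averaged. The interaction was −0.90 to −0.29 for Apoe and −0.93 to −0.20 for Clu with 1 array left out, and the average prominin difference of Apoe −0.39 to −0.11. The causes were not tested.

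Counts of called probes moved more. With the top code kept they were 31 (prominin at 24 h), 21 (average of both times), 17 (interaction), 19 (time in controls), 20 (time in prominin cultures) and 48 (average time). With zeros kept they were 1, 1 and 1 for prominin at 24 h, 108 h and on average, and 3 for average time. With dim ratios missing they were 1 for average prominin, 3, 10 and 30 for time in controls, in prominin cultures and on average. With 3 values in every group those 3 were 2, 21 and 34. Quantile normalization gave 1 for prominin at 24 h, 1 for time in controls and 16 for average time. For time in prominin cultures there were 7 without centring, 0 with only the arrays compared and 7 without moderation. For average time there were 36 without moderation, 11 with trend and robust, 2 with at least 1 value per group and 2 with the replicate block. Leaving out 1 array gave 0 to 1 for prominin at 24 h, 1 to 3 for time in prominin cultures and 2 to 9 for average time.

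Arrays of the same replicate number in different groups deviated together little if at all (r −0.0666 to 0.122 over 18 pairs, 3 of them above 0.1). Pairs of other replicate numbers had r of −0.12 to 0.121 over 36 pairs, 1 of them above 0.1. The numbers were not taken as pairing. The replicate block changed no call of Apoe or Clu in the prominin comparisons.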
